A study of Mus musculus with 6 samples.

Results

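Rag1, Rag2 and Dntt encode the lymphoid enzymes that cut and diversify antigen receptor genes, and all 3 were found by symbol among the 22099 genes of the deposited table. RAG1 and RAG2 together form the recombinase that cuts DNA at the signals flanking V, D and J segments, with RAG1 holding the catalytic centre and RAG2 acting as its essential partner. Dntt encodes terminal deoxynucleotidyl transferase (TdT), which adds bases without a template to the opened ends. In mouse bone marrow, pro-B cells express all of these genes while they join heavy chain segments. Rag transcription drops in the dividing pre-B cells that follow and returns for light chain joining, whereas Dntt is switched off from the pre-B stage.

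Polyadenylated RNA was sequenced from 6 cultures of C57BL/6 cells, 2 per genotype. The Ikaros_ZnF1-/- and Ikaros_ZnF4-/- groups, written ZnF1-/- and ZnF4-/-, lack zinc finger 1 or zinc finger 4 of Ikaros (Ikzf1), a lymphoid transcription factor that represses or activates its targets, and the wt group carries neither deletion. Whole bone marrow of each group was transduced at day 0 with BCR-ABL-p185-IRES-YFP, a retrovirus for the oncogenic kinase p185 and a fluorescent marker, and sampled after 14 days in culture as transformed proB-ALL (acute lymphoblastic leukaemia) cells, so the wt group carries the oncogene too. No untransformed marrow was analysed here, and the labels name neither a sort of the transduced cells nor the age of the mice.

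The values are RPKM, that is, reads scaled to transcript length and library size, which puts genes of different length on a common scale. RPKM summed to between 287007 and 345766 in each library, and 10582 to 11119 genes had at least 1 RPKM. Sequencing depth is unknown, because values written to 1 decimal hide the step made by a single read. Ikzf1 stood at 101.5 and 116.7 RPKM in ZnF1-/- cells, 188.2 and 170.2 RPKM in ZnF4-/- cells and 89.2 and 85.9 RPKM in wt, a level summed over the gene that does not check the deletion of single fingers. The cells carried B lineage transcripts in all libraries, with 7 markers (Cd79a, Cd79b, Pax5, Ebf1, Vpreb1, Igll1 and Blnk) summing to 2901.4 and 2509.5 RPKM in ZnF1-/- cells, 3066.5 and 2022.4 RPKM in ZnF4-/- cells and 2608.2 and 1938.2 RPKM in wt.

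The windows around the annotated starts of the 3 genes are shown because Rag1 and Rag2 were high in both mutants while Dntt was not, and because Ikaros binds DNA through its fingers. Each is a RefSeq window of 300 bases on build GRCm38.p6, most of it before the start of the gene and written in the direction of transcription. Capitals mark TGGGA, a core of Ikaros binding motifs, searched on both strands. The windows lie at chr2:101649483-101649782 on the minus strand for Rag1, chr2:101624462-101624761 on the plus strand for Rag2 and chr19:41029025-41029324 on the plus strand for Dntt.
Rag1: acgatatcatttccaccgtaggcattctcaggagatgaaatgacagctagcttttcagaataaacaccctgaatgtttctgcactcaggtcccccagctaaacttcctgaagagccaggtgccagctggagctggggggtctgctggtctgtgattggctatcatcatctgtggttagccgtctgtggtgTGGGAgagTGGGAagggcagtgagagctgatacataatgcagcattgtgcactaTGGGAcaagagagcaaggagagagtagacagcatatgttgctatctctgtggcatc
Rag2: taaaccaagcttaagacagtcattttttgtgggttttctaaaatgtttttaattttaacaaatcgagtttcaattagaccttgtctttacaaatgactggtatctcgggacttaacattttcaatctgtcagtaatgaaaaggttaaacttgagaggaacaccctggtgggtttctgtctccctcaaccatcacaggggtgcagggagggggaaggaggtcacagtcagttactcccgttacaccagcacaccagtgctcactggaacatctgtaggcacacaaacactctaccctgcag
Dntt: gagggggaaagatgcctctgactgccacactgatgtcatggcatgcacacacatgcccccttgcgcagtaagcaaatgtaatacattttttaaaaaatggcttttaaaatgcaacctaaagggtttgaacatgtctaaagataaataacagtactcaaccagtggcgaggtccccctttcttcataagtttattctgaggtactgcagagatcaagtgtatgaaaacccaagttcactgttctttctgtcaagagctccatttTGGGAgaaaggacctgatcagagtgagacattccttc
TGGGA was present 3 times in the Rag1 window, 0 times in that of Rag2 and 1 time in that of Dntt. It is found in 61.6% of all 32851 windows of this length, so its presence does not set Rag1 or Dntt apart. The E-box CANNTG, the site class of E proteins, had 4, 2 and 3 matches in the windows of Rag1, Rag2 and Dntt and is held by 72.3% of all windows. The FOXO motif TGTTTAC had 0 matches in each and is held by 3.65% of all windows.

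Rag1 differed most from wt in both mutants. It stood at 29.2 and 35.9 RPKM in ZnF1-/- replicates 1 and 2, 31.6 and 33.3 RPKM in ZnF4-/- replicates 1 and 2, and 5.4 and 8.7 RPKM in wt replicates 1 and 2. All 4 mutant libraries lay above both wt libraries, and the mutant groups overlapped each other. The share of all genes whose groups separate like this is not given here. Lack of overlap is thus only a description, for Rag1 and for the genes below. By level, Rag1 ranked 2954 and 2026 from the top of the 22099 genes in ZnF1-/- cells, 2640 and 2322 in ZnF4-/- cells and 7898 and 6393 in wt.

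Rag1 rose in ZnF4-/- cells against wt by 2.09 on the log2(RPKM + 1) scale (SE 0.25, limma adjusted p = 0.023), with means of 32.4 ± 1.2 and 7.05 ± 2.33 RPKM (SD, n = 2 each), a 4.6-fold difference. In that comparison 2.72% of the 11345 genes tested passed the threshold of 0.05, 1.43% as higher and 1.3% as lower. The log2 fold change of Rag1 was the 52nd largest of all rises. Without any 1 of the 6 libraries the difference stayed at 1.79 (without wt replicate 1) to 2.39 (without wt replicate 2), but the limma adjusted p was then 0.057 to 0.17, in fits with fewer residual degrees of freedom.

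In ZnF1-/- cells against wt, Rag1 was higher by 2.08 (SE 0.25), with means of 32.6 ± 4.74 and 7.05 ± 2.33 RPKM (SD, n = 2 each), a 4.62-fold difference. The limma adjusted p was 0.092, and 0.0052 with the replicate number of the labels as a block. Without the block 0% of the genes passed in this comparison, although 1281 had an unadjusted limma p under 0.05, and with the block 13.2% passed, 10.4% as higher and 2.88% as lower. Rag1 had the 11th largest rise among all 11345 genes tested. Within replicate number 1 ZnF1-/- cells held 5.41 times the wt level of Rag1, and within number 2 they held 4.13 times. The corresponding values for ZnF4-/- cells were 5.85 and 3.83 times.

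Rag2 followed the same order of groups at lower levels and with smaller differences. It stood at 12.3 and 17.2 RPKM in ZnF1-/- cells, 14.1 and 16.1 RPKM in ZnF4-/- cells and 4.4 and 8.6 RPKM in wt, each pair being replicates 1 and 2. Both wt libraries were again below all 4 mutant libraries, and the mutant groups overlapped.

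Against wt, the difference of Rag2 was 1.11 (SE 0.33) in ZnF1-/- cells and 1.16 (SE 0.33) in ZnF4-/- cells on the log2 scale, or 2.27-fold and 2.32-fold by the means. Neither passed without the replicate block, with limma adjusted p = 0.24 and 0.2, and both passed with it, at adjusted p = 0.018 and 0.011. With the block 15.9% of all genes passed in ZnF4-/- cells, 8.02% as higher, so calls were common in that fit. Without wt replicate 1, the lower of the wt libraries, the Rag2 difference shrank to 0.7 in ZnF1-/- cells and 0.74 in ZnF4-/- cells.

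Dntt had a different pattern, with low levels in ZnF4-/- cells. It stood at 205.7 and 129.2 RPKM in ZnF1-/- cells, 79.4 and 40.6 RPKM in ZnF4-/- cells and 189.2 and 161.4 RPKM in wt, replicate 1 before replicate 2. Both ZnF4-/- libraries lay below all 4 others, while ZnF1-/- cells and wt overlapped. Per length, Dntt was the most abundant of the 3 genes in every library. Its rank among the 22099 genes was 187 and 304 in ZnF1-/- cells, 814 and 1838 in ZnF4-/- cells and 220 and 202 in wt.

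In ZnF4-/- cells against wt, Dntt was lower by a log2 difference of -1.6 (SE 0.39), with means of 60 ± 27.4 and 175 ± 19.7 RPKM (SD, n = 2 each), or 34.2% of the wt level. This did not pass without the replicate block (limma adjusted p = 0.14) and passed with it (adjusted p = 0.0058), where 7.92% of all genes passed as lower. Within replicate numbers 1 and 2 ZnF4-/- cells held 0.42 and 0.252 times the wt level. The ZnF4-/- libraries differ widely from each other, and the difference was -2.08 without ZnF4-/- replicate 1 and -1.13 without ZnF4-/- replicate 2. In bulk RNA, fewer cells with Dntt and less Dntt RNA per cell cannot be told apart, and the same holds for Rag1 and Rag2.

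In ZnF1-/- cells against wt the difference of Dntt was -0.1 (SE 0.39, limma adjusted p = 1, or 0.75 with the block). The 95% interval of -1.08 to 0.88 spans both directions, so these groups are not shown to have equal levels.

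**Figure D1:**
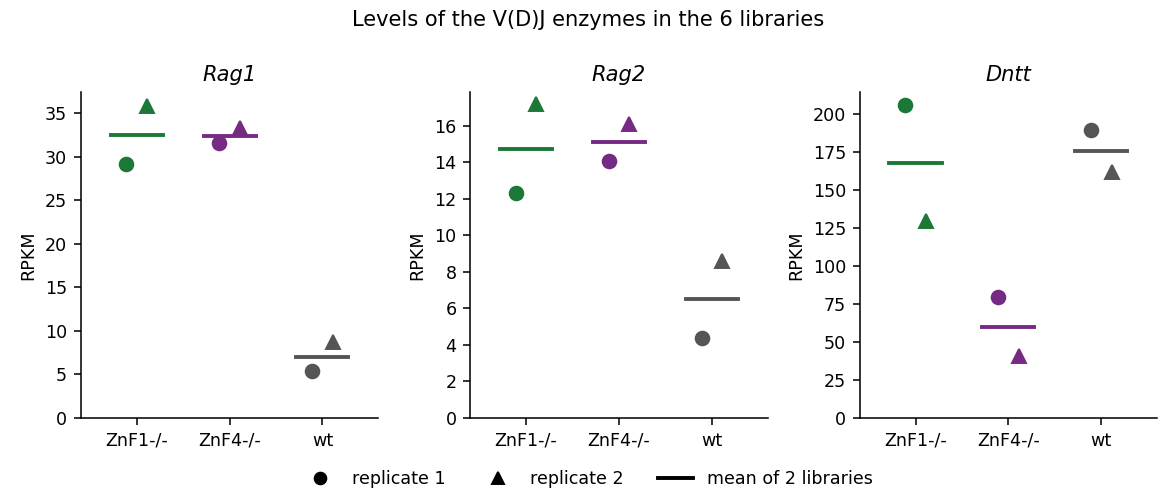
RPKM of Rag1, Rag2 and Dntt in each library, by group; points are libraries (circles replicate 1, triangles replicate 2) and horizontal lines are the means of 2 libraries. Rag1 and Rag2 lie higher in all 4 mutant libraries than in wt, and Dntt lies lower in both ZnF4-/- libraries than in the other 4.

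ZnF4-/- cells were set directly against ZnF1-/- cells to ask where the finger deletions differ. Rag1 differed by 0 (95% interval -0.62 to 0.62) and Rag2 by 0.05 (-0.77 to 0.87) on the log2 scale, with limma adjusted p = 1 and 0.97. The intervals allow differences of up to 0.62 and 0.87 upwards, so equal levels are not shown. Dntt differed by -1.5 (SE 0.39), with 60 ± 27.4 RPKM in ZnF4-/- cells and 167 ± 54.1 RPKM in ZnF1-/- cells (SD, n = 2 each). It passed with the replicate block only (limma adjusted p = 0.1 without it and 0.0047 with it). In this comparison 5.37% of all genes passed without the block and 35.1% with it, 19.2% as lower. The first 2 comparisons share the wt libraries, so the similar Rag1 values in them are not independent of each other.

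**Figure D2:**
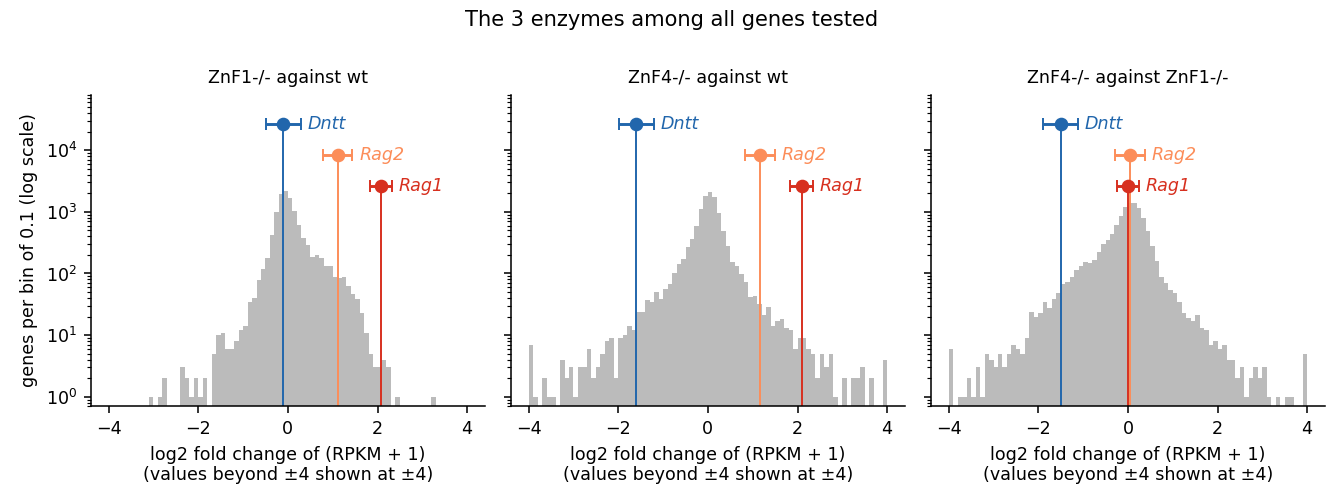
Distribution of log2 fold changes of all 11345 genes tested (grey, number of genes per bin on a log axis) with Rag1, Rag2 and Dntt marked (point and bar, estimate ± SE) in each comparison. Rag1 lies far to the right in both comparisons with wt and at 0 between the mutants, and Dntt lies to the left in both comparisons of ZnF4-/- cells.

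Ratios between the enzymes within a library are unaffected by a scaling factor common to all of its genes. The level of Rag1 over that of Rag2 was 2.37 and 2.09 in ZnF1-/- cells, 2.24 and 2.07 in ZnF4-/- cells and 1.23 and 1.01 in wt. All 4 mutant libraries thus held more Rag1 per Rag2 than both wt libraries. The level of Dntt over that of Rag1 was 7.04 and 3.6 in ZnF1-/- cells, 2.51 and 1.22 in ZnF4-/- cells and 35 and 18.6 in wt. The 3 groups did not overlap in this ratio, with ZnF4-/- cells lowest and wt highest. These ratios were not tested.

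Same-numbered libraries also moved together. In each of the 3 groups, replicate 2 held more Rag1, more Rag2 and less Dntt than replicate 1. Such a shared difference is counted as spread within groups in the fit without the block.

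Dntt was deposited as 2 RefSeq rows that were summed here. The row NM_001043228, with a length of 2081 bases, held 40.4 to 205.2 RPKM, and the row NM_009345, with a length of 2142 bases, held 0.2 to 0.6 RPKM in the 6 libraries. The transcript of the longer row has an extra exon, exon 11 of 12, of 60 bases at chr19:41058567-41058626 (GRCm38, plus strand), shown because it separates the rows.
Dntt extra exon: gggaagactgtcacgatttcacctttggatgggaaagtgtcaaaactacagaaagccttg
Transcripts of the same gene share most of their reads, and the files do not say how shared reads were given to rows, so the low value of the longer row is no measure of that isoform. Rag1 (NM_009019, 6669 bases) and Rag2 (NM_009020, 3396 bases) have 1 row each.

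Rag1 and Rag2 lie side by side on chromosome 2, transcribed towards each other. The neighbour on the Rag2 side is B230118H07Rik, also named Iftap or NWC, which encodes a protein linked to transport in cilia. It stood at 5.3 and 8.9 RPKM in ZnF4-/- cells, against 1.6 and 1.9 RPKM in ZnF1-/- cells and 0.7 and 1.8 RPKM in wt. The ZnF4-/- libraries lay above the other 4. The difference of B230118H07Rik was 1.86 (log2, SE 0.33) in ZnF4-/- cells against wt and 1.52 (SE 0.33) in ZnF4-/- against ZnF1-/- cells. The limma adjusted p was 0.065 and 0.068, and with the block 0.0034 and 0.0038. In ZnF1-/- cells against wt it did not pass in either fit (adjusted p = 1, or 0.25 with the block), whereas Rag1 and Rag2 passed there with the block.

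In the GENCODE annotation (GRCm38), 3 of the 12 transcripts of B230118H07Rik share 80 bases of exon with Rag1 on the same strand. Of the 12, 1 transcript has 208 bases of exon opposite an exon of Rag2. The transcript matched to the deposited row, NM_026592, shares 0 exonic bases with either gene. The sources used here do not say whether counting used strand.

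The other neighbours differed less. Commd9, a gene of endosomal protein sorting, stood at 18 and 18.3 RPKM in ZnF4-/- cells, 13.7 and 12.9 RPKM in ZnF1-/- cells and 10 and 9.9 RPKM in wt, with no overlap between the 3 groups. Its difference was 0.81 (SE 0.14) in ZnF4-/- cells against wt (limma adjusted p = 0.058, or 0.0035 with the block). In ZnF1-/- cells against wt it was 0.38 (limma adjusted p = 0.37, or 0.032 with the block). Traf6, a ubiquitin ligase of immune signalling, stood at 24.9 and 25.9 RPKM in ZnF4-/- cells, 22.3 and 23 RPKM in ZnF1-/- cells and 18.8 and 20.4 RPKM in wt. Traf6 differed by 0.36 in ZnF4-/- cells against wt (limma adjusted p = 0.42, or 0.028 with the block). B230118H07Rik, Commd9 and Traf6 thus all passed as higher in ZnF4-/- cells against wt with the block only, where 8.02% of all genes did. Prr5l, a partner of the mTORC2 kinase complex, did not reach 1 RPKM in 2 libraries and was not tested, with 1 and 0.8 RPKM in ZnF4-/- cells, 0.3 and 0.3 RPKM in ZnF1-/- cells and 0.1 and 0 RPKM in wt.

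Around Dntt on chromosome 19 0 of the 3 tested neighbours passed as lower in ZnF4-/- cells against wt in either fit. Over all genes tested, 7.92% passed as lower there with the block, so 0 of 3 is near the background. Opalin and Tll2 were listed at 0 in all 6 libraries. Blnk, an adaptor of pre-B cell receptor signalling, stood at 237.1 and 184 RPKM in ZnF4-/- cells, 256.2 and 251.2 RPKM in ZnF1-/- cells and 245.2 and 210.6 RPKM in wt. Tm9sf3 held 37 to 47.4 RPKM over the 6 libraries with overlapping groups. Pik3ap1, an adaptor linking B cell receptors to PI3 kinase, stood at 62.7 and 57.8 RPKM in ZnF4-/- cells and 46.1 and 44.8 RPKM in wt (limma adjusted p = 0.36, or 0.041 with the block). Of the 6 neighbours tested, 0 passed without the block in any comparison, and with it 1 was higher in ZnF1-/- cells against wt, 4 in ZnF4-/- cells against wt and 2 in ZnF4-/- against ZnF1-/- cells. Over all genes tested, 10.4%, 8.02% and 15.9% passed as higher with the block in these comparisons.

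**Figure D3:**
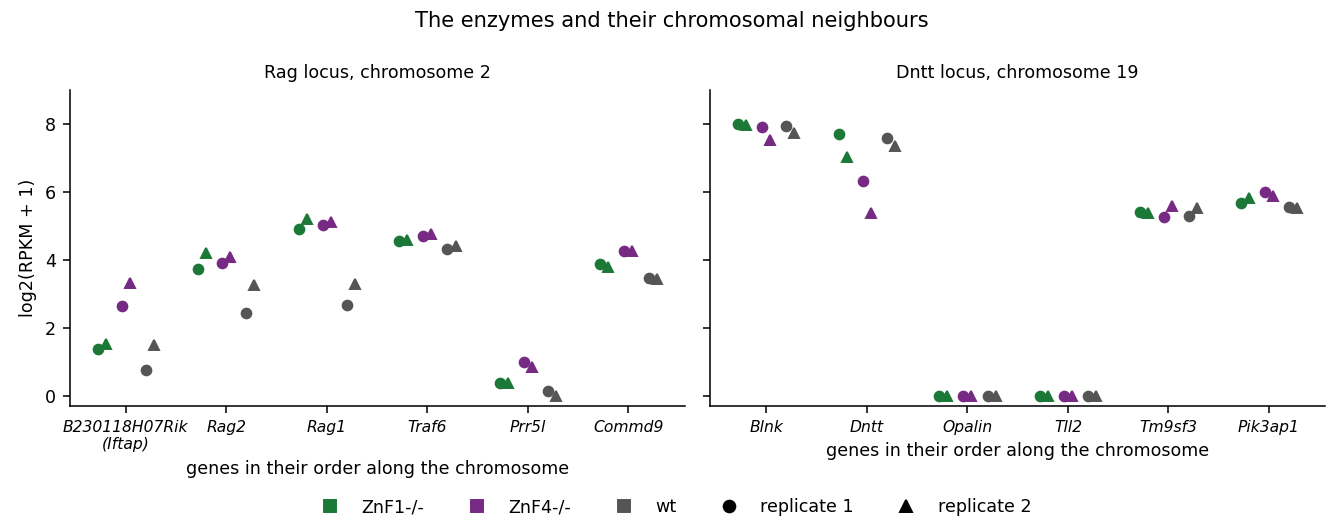
log2(RPKM + 1) of the enzymes and of their neighbours in each library, in the order of the genes along chromosome 2 (left) and chromosome 19 (right). B230118H07Rik lies highest in both ZnF4-/- libraries, while Rag2 and Rag1 lie higher in both mutants than in wt, and Blnk and Tm9sf3 near Dntt did not pass in either fit.

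The template-free TdT belongs to the X family of polymerases, whose other members Polm, Poll and Polb fill gaps in DNA repair. These 3 genes stood at 1 to 3.3, 5.5 to 12.8 and 13.7 to 16.6 RPKM over the 6 libraries, and 0 passed against wt in either fit. With the block 13.2% of all genes passed in ZnF1-/- cells and 15.9% in ZnF4-/- cells, so 0 of 3 is near the background. Poll was at 9.5 and 5.5 RPKM in ZnF4-/- cells and 11.9 and 7 RPKM in ZnF1-/- cells, a log2 difference of -0.3 (limma adjusted p = 0.81, or 0.047 with the block).

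The ends that RAG cuts are joined by the classical end-joining factors. Of 14 end-joining and break-response genes, 0 passed in ZnF1-/- cells against wt without the block, and 1 was higher and 1 lower with it. That is 2 of 14 where 13.2% of all genes passed with the block, a share near the background. Lig4, the ligase that seals the joints, fell in ZnF4-/- cells by 1.29 (SE 0.17, limma adjusted p = 0.029), and stood at 3.6 and 3.9 RPKM there, 6.6 and 7.6 RPKM in ZnF1-/- cells and 9.6 and 11.8 RPKM in wt. Leaving out any 1 of the 6 libraries, rescaling libraries to the same sum or to 5 B lineage genes, or testing without a filter ended that call (log2 differences of -1.43 without wt replicate 1 to -1.16 without wt replicate 2). The 3 groups did not overlap in Lig4, and ZnF1-/- cells against wt passed with the block only (-0.53, limma adjusted p = 0.31 without and 0.022 with it).

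With the block, 1 end-joining gene was higher and 2 were lower in ZnF4-/- cells against wt, 3 of 14 where 15.9% of all genes passed, so this count is near the background. Xrcc6, the Ku70 subunit that binds broken ends, stood at 47.8 and 47.8 RPKM in ZnF4-/- cells, 76.1 and 59.4 RPKM in ZnF1-/- cells and 86.8 and 85 RPKM in wt. Its difference in ZnF4-/- cells against wt was -0.83 (limma adjusted p = 0.097, or 0.0095 with the block). Nbn, a subunit of the MRE11 break sensor, stood at 21.6 and 29.4 RPKM in ZnF4-/- cells and 15.3 and 20.2 RPKM in wt (limma adjusted p = 0.53, or 0.027 with the block). Dclre1c, the Artemis nuclease that opens the hairpins left by RAG, stood at 9.9 and 15.1 RPKM in ZnF1-/- cells and 7.4 and 11 RPKM in wt, groups that overlap (limma adjusted p = 0.96, or 0.03 with the block). The median log2 difference over the 14 genes was -0.13 in ZnF1-/- cells and 0.07 in ZnF4-/- cells, beside -0.01 and 0.04 over all genes tested. In ZnF4-/- against ZnF1-/- cells 4 were higher and 3 lower with the block and 0 without it, where 15.9% of all genes passed as higher and 19.2% as lower with the block, and the median was 0.17 beside 0.04 over all genes tested. Among the higher ones, Xrcc5 stood at 19.4 and 23.7 RPKM in ZnF4-/- cells and 16.5 and 17.9 RPKM in ZnF1-/- cells (limma adjusted p = 0.5, or 0.043 with the block).

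A list of 12 partners of RAG and TdT protein, among them the cyclin A and Skp2 that direct RAG2 for destruction in dividing cells, had 0 members past the threshold against wt in either fit. With the block 13.2% of all genes passed in ZnF1-/- cells and 15.9% in ZnF4-/- cells, so 0 in so short a list says little. The medians of the list were -0.12 in ZnF1-/- cells and 0.11 in ZnF4-/- cells, beside -0.01 and 0.04 over all genes tested. In ZnF4-/- against ZnF1-/- cells, 4 of the 12 were higher with the block and 0 without it, where 15.9% of all genes passed as higher with the block. The median over the list was 0.25, beside 0.04 over all genes tested. Ccna2 (cyclin A) stood at 220.5 and 248.1 RPKM in ZnF4-/- cells and 158.1 and 181.4 RPKM in ZnF1-/- cells (limma adjusted p = 0.25, or 0.0096 with the block). Skp2 stood at 29.5 and 37.2 RPKM in ZnF4-/- cells and 19.2 and 25.9 RPKM in ZnF1-/- cells (limma adjusted p = 0.26, or 0.0076 with the block). The other 2 were Pcna, the sliding clamp of replication, and the TdT-interacting gene Dnttip2.

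Transcription regulators tied to Rag or Dntt expression, 28 in the list, were tested too. In ZnF4-/- cells against wt, 1 rose and 0 fell without the block, and 1 was higher and 10 lower with it, where 8.02% of all genes passed as higher and 7.92% as lower. The median over the list was -0.15, beside 0.04 over all genes tested. The 1 that rose is Ikzf1 itself (1.02, limma adjusted p = 0.045). That call ended without any 1 library, with only the 4 libraries compared, with no filter or a filter at 5 RPKM, and under each of the 3 other scalings (limma adjusted p of 0.052 to 0.28 in these fits). In ZnF1-/- cells 0 passed without the block, and 2 were higher and 3 lower with it, 5 of 28 where 13.2% of all genes passed (10.4% as higher and 2.88% as lower). Over both directions that share is near the background. The lower calls alone, 3 of 28, are above the share over all genes, and the higher calls are below it. The median over the list was 0.06, beside -0.01 over all genes tested.

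Ets1, a lymphoid factor, stood at 53.3 and 44.8 RPKM in ZnF1-/- cells, 51 and 43.2 RPKM in ZnF4-/- cells and 84.6 and 74.5 RPKM in wt. Both mutant groups lay below wt, as Rag1 lay above it (the limma adjusted p of ZnF1-/- and ZnF4-/- cells was 0.19 and 0.14, and with the block 0.008 and 0.0036). Myb, a factor of blood cell progenitors, stood at 76.6 and 79 RPKM in ZnF1-/- cells, 80.8 and 78.3 RPKM in ZnF4-/- cells and 102 and 116.4 RPKM in wt (likewise 0.28 and 0.3 without the block by limma adjusted p, and 0.028 in both with it). Gfi1b, a repressor of Rag transcription in mouse B progenitors, was at 2.6 and 1.6 RPKM in ZnF1-/- cells, 3.7 and 2.1 RPKM in ZnF4-/- cells and 6.1 and 3.3 RPKM in wt, passing against wt with the block only (adjusted p = 0.013 and 0.03).

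Bach2, a B lineage repressor, separated the mutants as Dntt did. It stood at 17.4 and 13.7 RPKM in ZnF4-/- cells, 26.9 and 27.3 RPKM in ZnF1-/- cells and 27.8 and 25.6 RPKM in wt (ZnF4-/- against wt -0.75, limma adjusted p = 0.12, or 0.01 with the block). Spib, an ETS factor of B cells, stood at 71.8 and 28 RPKM in ZnF4-/- cells, 181.3 and 154.4 RPKM in ZnF1-/- cells and 138.5 and 80.6 RPKM in wt (ZnF4-/- against ZnF1-/- -1.87, limma adjusted p = 0.11, or 0.0068 with the block). Id2, an inhibitor of E proteins, stood at 17.9 and 12.9 RPKM in ZnF1-/- cells, 5.7 and 6 RPKM in ZnF4-/- cells and 8.2 and 5.6 RPKM in wt (ZnF1-/- against wt 1.06, limma adjusted p = 0.16, or 0.018 with the block). Zfp608, which represses Rag genes in mouse thymocytes, stood at 14.7 and 14.7 RPKM in ZnF4-/- cells, 17.2 and 22.6 RPKM in ZnF1-/- cells and 22.7 and 24.7 RPKM in wt. It passed in ZnF4-/- cells against wt with the block only (-0.65, limma adjusted p = 0.2, or 0.019 with the block). In ZnF1-/- cells against wt Zfp608 did not pass in either fit (-0.25, limma adjusted p = 0.93, or 0.2 with the block). Foxo1, the main activator of Rag transcription in mouse B progenitors, held 67.8 and 62.4 RPKM in ZnF1-/- cells, 74.9 and 61 RPKM in ZnF4-/- cells and 60.5 and 59.1 RPKM in wt. It did not pass in either fit and was named after its values were seen.

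**Figure D4:**
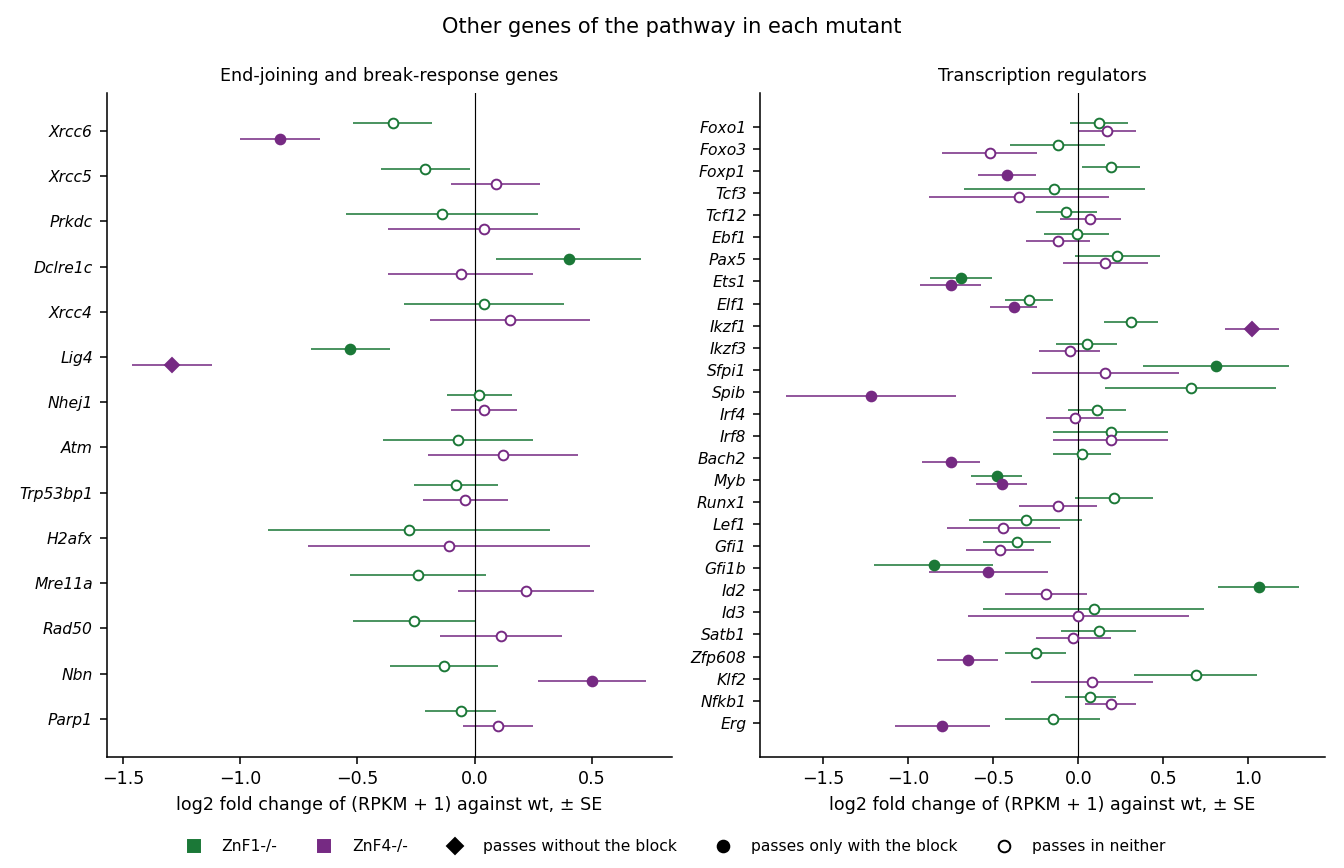
log2 fold change of (RPKM + 1) against wt, ± SE, for each end-joining and break-response gene (left) and each transcription regulator (right) in ZnF1-/- (green) and ZnF4-/- cells (purple). Diamonds passed without the replicate block (Lig4 and Ikzf1 in ZnF4-/- cells), filled circles with the block only and open circles in neither fit.

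Among 1238 genes with a span of at least 1 log2 unit between group means, those most like each enzyme over the 6 libraries were listed by Pearson correlation of log2(RPKM + 1). These values describe 6 libraries that share their groups and replicate numbers. For Rag1 they were Sbf2 (r = 0.987), a myotubularin-related protein, Col6a6 (0.979), a collagen VI chain, Cdc42bpb (0.97), a kinase that acts with Cdc42, and Epha5 (0.959), an ephrin receptor. Epha5 was near the floor, at 0.9 and 1.3 RPKM in ZnF1-/- cells, 1.7 and 1.7 RPKM in ZnF4-/- cells and 0 and 0.1 RPKM in wt. It entered the test only through mutant libraries. Sbf2 stood at 6.4 and 8.7 RPKM in ZnF1-/- cells, 7 and 6.8 RPKM in ZnF4-/- cells and 2.5 and 3.4 RPKM in wt. For Rag2 they were Col6a6 (0.964), Sbf2 (0.963), the sialyltransferase St3gal6 (0.963), Rag1 (0.959) and Parp8 (0.948).

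For Dntt they were the small GTPase Rab37 (r = 0.993), the sodium channel subunit Scn4b (0.988), the lymphotoxin gene Ltb (0.982), the MAX partner Mxd4 (0.981) and the peroxisomal oxidase Acox3 (0.979). Scn4b stood at 14.9 and 7.5 RPKM in ZnF4-/- cells, 94 and 49.4 RPKM in ZnF1-/- cells and 86.5 and 63.8 RPKM in wt. Ltb, a cytokine gene of lymphocytes, stood at 14.5 and 8.1 RPKM in ZnF4-/- cells, 65.6 and 37 RPKM in ZnF1-/- cells and 78.1 and 57.6 RPKM in wt. Both were low in the ZnF4-/- libraries and lower in replicate 2 than in replicate 1 of each group, as was Dntt. They were chosen by correlation with Dntt over these libraries, so the shared pattern restates that choice.

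T cell precursors also express Rag1, Rag2 and Dntt, but of 10 T lineage markers 6 (Cd3e, Cd3g, Cd8a, Cd8b1, Ptcra and Bcl11b) were listed at 0 in all 6 libraries and 2 more did not exceed 0.1 RPKM. The remaining 2 were Lck and Cd4. Lck, a kinase that B progenitors can also express, stood at 53.4 and 26.6 RPKM in ZnF1-/- cells, 18.1 and 15 RPKM in ZnF4-/- cells and 46.2 and 27.4 RPKM in wt. It differed by -1.07 in ZnF4-/- cells against wt (limma adjusted p = 0.39, or 0.019 with the block). Against ZnF1-/- cells the difference was -1.15 (limma adjusted p = 0.21, or 0.0095 with the block). Cd4 stood at 1.7 and 2 RPKM in ZnF1-/- cells, 0 in ZnF4-/- cells and 0.1 in wt, and entered the test only through ZnF1-/- libraries. Of 7 plasmacytoid dendritic markers, 3 (Siglech, Ccr9 and Klk1) did not exceed 0.1 RPKM. The sum of all 7 was 44.7 and 43.9 RPKM in ZnF4-/- cells, 34.1 and 36.2 RPKM in ZnF1-/- cells and 33.5 and 33 RPKM in wt, and most of it came from Tcf4, an E protein gene that B lineage cells express too. Tcf4 stood at 41.4 and 42.6 RPKM in ZnF4-/- cells and 27.7 and 31 RPKM in wt (limma adjusted p = 0.21, or 0.012 with the block). Whether these cells had a part in the Rag1, Rag2 or Dntt differences was not tested.

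Early lymphoid progenitors express the enzymes too, and 6 of their markers summed to 53.6 and 51.3 RPKM in ZnF4-/- cells, 166.3 and 142.7 RPKM in ZnF1-/- cells and 100.5 and 72.9 RPKM in wt. This sum was lowest in ZnF4-/- cells, but the list did not move as a whole there. Of the 4 markers tested, only Ly6d was lower in ZnF4-/- cells than in wt. The other 3, Kit, Il7r and Ly6a, were higher by 3.64, 0.19 and 0.1, and the median log2 difference was 0.14. Ly6d, a surface marker of B-biased progenitors, had 7 and 4 RPKM in ZnF4-/- cells, 59.5 and 47.7 RPKM in ZnF1-/- cells and 73.9 and 43.1 RPKM in wt, and fell in ZnF4-/- cells against wt (log2 difference -3.18, limma adjusted p = 0.021, lost without any 1 library). Kit, the stem cell factor receptor of pro-B cells, moved the other way, at 16.2 and 15.4 RPKM in ZnF4-/- cells, 1 and 1.6 RPKM in ZnF1-/- cells and 0.4 and 0.3 RPKM in wt (ZnF4-/- against wt 3.64, limma adjusted p = 0.0049, lost without either ZnF4-/- replicate). Kit entered the test only through mutant libraries, so this p-value is no independent support. Il7r, the interleukin 7 receptor, stood at 43.5 and 70.5 RPKM in ZnF1-/- cells, 21.1 and 20.3 RPKM in ZnF4-/- cells and 15.3 and 21.3 RPKM in wt. Flt3 and Cd34 were too low to test. In ZnF1-/- cells against wt, Il7r (1.56), Ly6a (1.88) and Kit (0.76) passed as higher with the block only (limma adjusted p = 0.011, 0.041 and 0.036). Ly6d differed by -0.08 there. With the block 10.4% of all genes passed as higher in that comparison. The median over the 4 markers was 1.16, beside -0.01 over all genes tested. These markers were named after their values were seen, and their part in the Rag1, Rag2 or Dntt differences was not tested.

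Myeloid and stromal transcripts were highest in ZnF1-/- libraries. The sum of 9 granulocyte and macrophage markers was 661.7 and 1904.1 RPKM in ZnF1-/- cells, 226.6 and 282.3 RPKM in ZnF4-/- cells and 603.6 and 265.6 RPKM in wt. Of these 9 genes 7 were tested, and 0 passed in ZnF1-/- cells against wt without the block and 5 were higher with it, where 10.4% of all genes passed as higher. The sum of 5 stromal markers was 160.2 and 58 RPKM in ZnF1-/- cells, 27.1 and 18.5 RPKM in ZnF4-/- cells and 35.7 and 30.6 RPKM in wt. The part of these cells in the ZnF1-/- values was not tested.

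Relative to the mean of 5 B lineage genes in the same library, the Rag1 difference was 1.83 in ZnF1-/- cells and 2.14 in ZnF4-/- cells, and the Dntt difference in ZnF4-/- cells was -1.55 (limma adjusted p = 0.21, 0.025 and 0.035). ZnF1-/- replicate 2 and wt replicate 1 stood apart in the granulocyte genes S100a8, at 1.7 and 741.9 RPKM in ZnF1-/- cells, 3.3 and 24.4 RPKM in ZnF4-/- cells and 199.8 and 0.2 RPKM in wt, and S100a9. The macrophage gene Cd68 did not follow them, at 161.5 and 140.9 RPKM in ZnF1-/- cells, 58.8 and 47.7 RPKM in ZnF4-/- cells and 55.2 and 45.1 RPKM in wt, so leaving out these libraries does not remove the macrophage difference. Without them, Rag1 differed by 1.64 in ZnF1-/- cells and 1.79 in ZnF4-/- cells, Rag2 by 0.47 and 0.74, and Dntt by -1.49 in ZnF4-/- cells. These fits keep 1 library of wt and of ZnF1-/- cells, from different replicate numbers, so their differences also hold the replicate difference, and 0 of the 3 genes passed. The lone libraries are assumed to vary like the ZnF4-/- pair.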

How the data were processed

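The authors deposited RPKM values for RefSeq transcripts, 1 column per library, per the file headers. TopHat, bedtools and build mm9 are named in the submitters' processing notes, with no word on how shared reads were counted. By symbol, 26531 rows gave 22099 genes, adding up rows of a gene. Of 40 symbols turned into numbers, 39 were restored by RefSeq accession, and 1 row without a gene was left out.

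The test took 11345 genes that reached 1 RPKM in 2 or more libraries, all 3 enzymes among them, and used limma 3.58.1 in R 4.3.3 on log2(RPKM + 1), a scale that understates changes of low genes, with a prior variance following mean level. All 6 libraries entered 1 fit of 3 group means, two-sided, with Benjamini-Hochberg adjustment over all genes and a threshold of 0.05 (3 residual and 2.32 prior degrees of freedom). The script was checked on simulated data. The labels number replicates 1 and 2 in each group without saying what a number shares. Libraries of the same number deviated from their groups together, with correlations of 0.5 (ZnF1-/- and wt), 0.754 (ZnF4-/- and wt) and 0.715 (ZnF4-/- and ZnF1-/-). A fit with the number as a block was therefore run too. It is printed where it changes a call of the 3 enzymes, but not for every list or marker gene whose call it changes. P-values rest on the spread between 2 cultures per group, pooled over the 3 groups and moderated by a prior from all genes tested. The fit with the block has 2 residual and 3.06 prior degrees of freedom.

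The members and lists were chosen with earlier results of these data known. List genes are named when among the 4 lowest p of those passing in either fit, neighbours and X family polymerases always, and the 5 genes most like each enzyme by correlation. Promoters are from RefSeq (all 3 matched), the exon from GENCODE M21. Alternatives covered pseudocount, filter, block, scaling, row choice, trend and left-out libraries. A marker gene and a gene among those most like Rag1 are not reported here.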

Additional observations from a re-analysis of the deposited data

How the results depend on the processing

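With the replicate block, Rag1 and Rag2 in ZnF1-/- cells (2.08 and 1.11), Rag2 and Dntt in ZnF4-/- cells against wt (1.16 and -1.6) and Dntt in ZnF4-/- against ZnF1-/- cells (-1.5) came to pass, and the genes called numbered 1502 in ZnF1-/- cells against wt, 1809 in ZnF4-/- cells against wt and 3979 in ZnF4-/- against ZnF1-/- cells, in place of 0, 309 and 609. The block changed no other call of the 3 enzymes. Leaving out single libraries, the ranges were 1.78 to 2.38, 0.7 to 1.53 and -0.43 to 0.23 for Rag1, Rag2 and Dntt in ZnF1-/- cells against wt, 1.79 to 2.39, 0.74 to 1.57 and -2.08 to -1.13 in ZnF4-/- cells against wt, and -0.14 to 0.15, -0.18 to 0.27 and -1.98 to -1.03 in ZnF4-/- against ZnF1-/- cells. Genes called then numbered 0, 0 to 88 and 0 to 262, and Poll in ZnF4-/- against ZnF1-/- cells ranged over -0.64 to 0.05. Dntt in ZnF1-/- cells against wt thus had no stable sign. The Rag1 call in ZnF4-/- cells ended in every fit with fewer libraries, also with only the 4 libraries compared (2.09), where 86 genes were called (234 between the mutants). Without both libraries with most granulocyte transcripts, an alternative chosen after seeing the data, Rag1 in ZnF4-/- cells was 1.79, Dntt in ZnF1-/- cells 0.35 and Dclre1c there -0.14, and 0 genes were called in each comparison. Such fits have fewer degrees of freedom. Among genes with at least 5 RPKM, 176 and 323 genes were called in ZnF4-/- cells against wt and against ZnF1-/- cells. Relative to 5 B lineage genes, 8 genes were called in ZnF1-/- cells and 292 between the mutants, Dntt passed in ZnF4-/- cells (-1.55), and Poll between the mutants was 0.01. Under that scaling the median log2 difference of all genes was -0.26 in ZnF1-/- cells against wt, 0.09 in ZnF4-/- cells against wt and 0.34 between the mutants, in place of -0.01, 0.04 and 0.04. Rescaling to the same sum called 1 gene in ZnF1-/- cells, and quantile normalization gave Rag1 -0.01 between the mutants. The causes were not tested. Rag1 and Rag2 kept their direction against wt in all 18 alternatives, as did Dntt in ZnF4-/- cells. Most of these could not change it, since block, filter and trend leave the estimate as it is. Groups without overlap also keep their order when libraries are left out. For the named list and marker genes, 683 of 772 values kept direction and call, and 495 of 540 counts stayed within 1.5 times. Depth is unknown, so counting error is not given.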
